A study of Mus musculus with 6 samples.

Results

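Bone matrix genes were examined in mammary tumors grown from 4T1 cells, a mouse mammary carcinoma line, in the fourth mammary gland of Balb/C mice. The set was a list of 9 genes, Ibsp, Spp1, Dmp1, Mepe, Runx2, Sp7, Alpl, Phex and Mgp, drawn up with earlier results of these tumors in view. Its probe sets were chosen by their measured level, as the one that names the gene alone and has the highest mean signal over all 6 arrays. Of the 9 genes, 7 had such a probe set, 1 each, among 19937 genes on the array. Spp1 (osteopontin) and Runx2 were not analysed here. The 3 TKI258 mice received an oral dose of 40 mg/kg daily for 14 days, starting 7 days after the injection of 750000 tumor cells, and 3 control mice received water on the same schedule. TKI258 (dovitinib) is an inhibitor of receptor tyrosine kinases, among them the FGF, VEGF and PDGF receptors. The comparison asked which transcripts differed between tumors of treated and water-fed mice.

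Mineralized tissue is built by osteoblasts and osteocytes, which secrete collagen together with acidic proteins that bind calcium. Dmp1, Ibsp, Mepe and Spp1 belong with Dspp to the SIBLING family, whose secreted glycoproteins share an integrin-binding RGD site and act in mineral deposition. Sp7 (osterix) is a transcription factor of osteoblasts that acts downstream of Runx2, while Alpl and Phex encode enzymes of mineral and phosphate control and Mgp encodes an inhibitor of calcification. Bone sialoprotein and osteopontin are also known from breast carcinomas, where they have been studied in relation to bone metastasis and microcalcification.

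The SIBLING genes lie side by side on mouse chromosome 5, in the order Dspp, Dmp1, Ibsp, Mepe and Spp1 (RefSeq, GRCm38.p6). The upstream sequences of Dmp1, Ibsp and Mepe are shown because these measured genes are neighbors of similar function. Ibsp was lower and Dmp1 higher in TKI258 tumors, although neither passed the test given below. In Mepe the groups overlapped. RefSeq promoters were found for 5 of the 7 measured genes, in 7 windows, since Dmp1 and Alpl have more than 1 start. Sp7 and Mgp were not matched. Each sequence below gives the 250 bases before a start, 5′ to 3′ on the plus strand of GRCm38.p6, with each CCAAT box (letters CCAAT, or ATTGG on the other strand) in capitals. The windows are chr5:104299037-104299286 for Ibsp, chr5:104197325-104197574 and chr5:104202367-104202616 for the first and second starts of Dmp1, and chr5:104325079-104325328 for Mepe.
Ibsp: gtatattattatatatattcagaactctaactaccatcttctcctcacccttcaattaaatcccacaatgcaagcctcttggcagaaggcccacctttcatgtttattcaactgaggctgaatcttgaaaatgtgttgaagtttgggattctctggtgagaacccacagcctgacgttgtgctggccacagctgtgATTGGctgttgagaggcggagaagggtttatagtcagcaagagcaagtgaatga
Dmp1, first start: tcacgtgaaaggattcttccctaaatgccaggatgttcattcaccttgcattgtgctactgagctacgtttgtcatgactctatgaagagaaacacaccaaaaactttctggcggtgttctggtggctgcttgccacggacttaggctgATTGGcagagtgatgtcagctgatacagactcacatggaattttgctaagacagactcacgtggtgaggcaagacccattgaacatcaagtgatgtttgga
Dmp1, second start: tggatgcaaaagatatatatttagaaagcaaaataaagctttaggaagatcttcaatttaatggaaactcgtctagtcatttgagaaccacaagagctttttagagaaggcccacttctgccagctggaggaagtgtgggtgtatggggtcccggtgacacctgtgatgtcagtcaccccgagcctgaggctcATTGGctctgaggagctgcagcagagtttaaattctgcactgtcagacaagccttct
Mepe: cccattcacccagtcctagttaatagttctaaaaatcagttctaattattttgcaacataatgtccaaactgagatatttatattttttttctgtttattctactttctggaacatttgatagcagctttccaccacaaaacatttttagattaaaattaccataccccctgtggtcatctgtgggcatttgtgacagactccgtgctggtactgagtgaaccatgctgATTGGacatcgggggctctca

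A CCAAT box stood in 4 of the 7 windows examined, each time as ATTGG. These were the 4 windows shown, with Dmp1 counted at both starts, and not the 3 windows of Alpl and Phex. A difference between these windows was not tested. Over all 32851 RefSeq promoter windows of the same length, 33.8% held CCAAT or ATTGG. In Ibsp it began 54 bases before the start and was followed 28 bases before the start by TTTATA, the letters of a TATA box on the other strand. At the second start of Dmp1 it began 57 bases before the start, at the first start 101 and in Mepe 21. The RUNX core letters ACCACA or TGTGGT, present in 14% of all windows, occurred once before the second start of Dmp1, at 164 bases, and in Mepe at 118 and 80 bases. They were not in the Ibsp window. TATAAA or TTTATA was in 12.4% of all windows, and in 3 of the 7 examined, those of Ibsp, Mepe and the second start of Alpl. In Mepe and Alpl these letters began 173 and 192 bases before the start, much farther away than the 28 bases in Ibsp. The AP-1 letters TGANTCA, in 6.75% of all windows, were in none of the 7. Both strands were searched, and no motif shared letters with another in these windows.

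Signals are log2 values, so a difference of 1 is a doubling. Whole tumors were profiled, so fewer cells of a type and less RNA per cell cannot be told apart. Array medians lay between 6.38 and 6.44, and arrays correlated with each other at 0.973 to 0.993 over all probe sets. TKI258 replicate 3 and water replicate 1 stood apart through B cell markers (list means 9.12 and 7.00, against 4.80 to 5.09 in the other tumors). Water replicates 2 and 3 stood apart through keratinocyte markers (7.68 and 7.39, against 5.32 to 5.53 elsewhere). The epithelial keratins Krt8 and Krt18 exceeded 11 on every array. The authors' RMA signals were compared with limma, with Benjamini-Hochberg adjustment of the p-values across the whole table of 34760 probe sets. No probe set passed an adjusted p of 0.05 (0% called), while 2803 had an unadjusted limma p under 0.05. Accordingly none of the 7 bone matrix genes passed. At an unadjusted limma p of 0.05, 1 of them was higher (Dmp1, against 3.79% of all genes) and 2 were lower (Ibsp and Phex, against 3.35%).

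Ibsp differed most, with a 3.55-fold lower signal in TKI258 tumors. Dmp1, its neighbor, was higher in TKI258 tumors, and Phex and Alpl were somewhat lower. Mepe, Sp7 and Mgp had differences of at most 0.11 log2 units, although the interval for Mgp was wide. In 3 of the 7 genes the groups did not overlap. Dmp1 was the 1 higher gene (background 8.66% of all genes), and Ibsp and Alpl were the 2 lower ones (background 6.49%). The median difference was -0.09 over the 7 genes and 0.02 over all 19937 genes. Nothing is read from these counts, because the list was drawn up with the comparison in view.

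Ibsp encodes bone sialoprotein, an acidic glycoprotein that binds collagen and hydroxyapatite, nucleates mineral and attaches cells through its RGD site. Its signal was 7.20, 6.43 and 6.10 in TKI258 replicates 1, 2 and 3, against 9.04, 7.99 and 8.19 in water replicates 1, 2 and 3. Every TKI258 tumor lay below every water tumor, and the gap between the highest TKI258 and the lowest water tumor was smaller than the spread within either group. Ibsp averaged 6.58 ± 0.56 in TKI258 tumors and 8.41 ± 0.56 in water tumors (SD, n = 3 each). The difference was -1.83 ± 0.36 (SE, 95% interval -2.70 to -0.96), with a limma adjusted p of 0.484. By size it was the sixth of all genes on the lower side, and by limma p it ranked 58 of 19937. An exact two-sided permutation test over 3 against 3 tumors cannot go below p = 0.1. In TKI258 replicate 3 the signal lay below the median of the array, and in the other 5 tumors above it. In TKI258 replicate 2 it was only just above (6.43, against a median of 6.40). Ibsp also varied widely within groups. Its residual SD was 0.56, against a median of 0.13 over all genes, and its range over the 6 tumors was 2.95, the 77th widest of 19937.

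Dmp1 encodes dentin matrix protein 1, an acidic phosphoprotein of osteocytes and odontoblasts that takes part in mineralization and in the control of FGF23. It had signals of 9.11, 9.08 and 9.08 in the TKI258 tumors, against 8.98, 8.23 and 8.43 in the water tumors. All TKI258 tumors were above all water tumors, but water replicate 1 was only slightly below them. The TKI258 tumors were nearly equal (9.09 ± 0.02), whereas the water tumors spread over 0.75 log2 units (8.55 ± 0.39, SD, n = 3 each). The difference was 0.55 ± 0.19 (SE, 95% interval 0.09 to 1.00; limma adjusted p = 0.594). Water replicate 1, the highest water tumor for both Ibsp and Dmp1, thus lay farthest from the TKI258 tumors in Ibsp and nearest to them in Dmp1.

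Mepe encodes matrix extracellular phosphoglycoprotein, a product of osteocytes whose acidic peptide inhibits mineralization. Its signals were 3.44, 3.54 and 3.49 in TKI258 tumors and 3.45, 3.29 and 3.40 in water tumors. All values were far below the array medians, and the groups overlapped. The difference was 0.11 ± 0.09 (SE, 95% interval -0.09 to 0.32; limma adjusted p = 0.728), and 0.07 without water replicate 2. Dspp, the dentin sialophosphoprotein gene next to Dmp1 at an end of the cluster, was likewise below the medians on every array. It averaged 5.06 ± 0.09 in TKI258 tumors and 4.92 ± 0.19 in water tumors (SD, n = 3 each; limma adjusted p = 0.762). Of the 4 measured genes of the cluster, Dmp1 was the 1 above the array median in all 6 tumors.

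**Figure D1:**
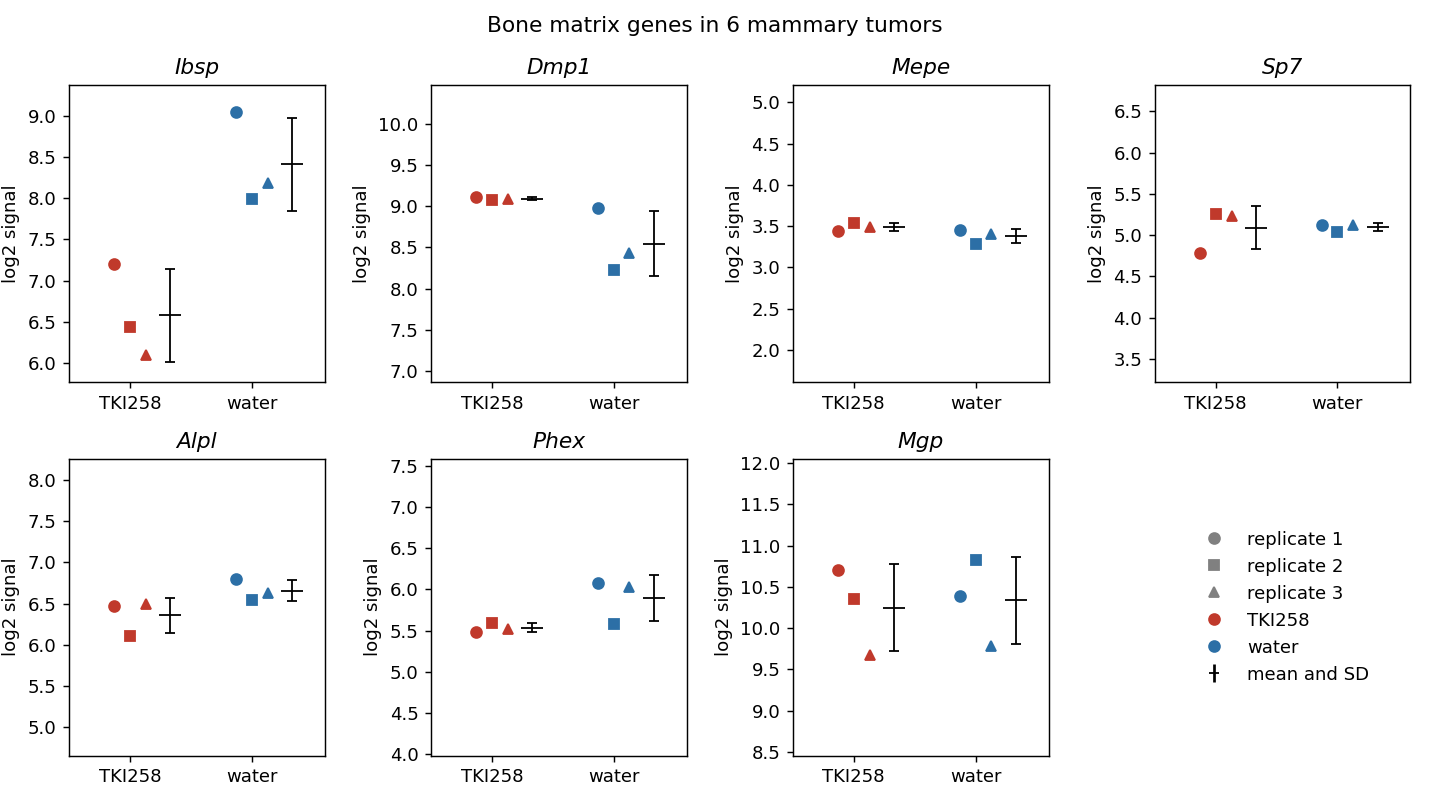
Log2 signal of the 7 measured bone matrix genes in single tumors (TKI258 left, water right; circle, square and triangle for replicates 1, 2 and 3; bars, mean and SD of 3 tumors), with the same span on every vertical axis. Ibsp is lower in all TKI258 tumors (6.10 to 7.20, against 7.99 to 9.04 in water), Dmp1 is slightly higher, and Mgp spreads over about 1 unit in both groups.

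Sp7 (osterix) is required for osteoblast formation in the mouse. Its signals were 4.79, 5.25 and 5.23 in TKI258 tumors and 5.13, 5.04 and 5.13 in water tumors. TKI258 replicate 1 was the lowest and the other TKI258 tumors were the highest, so the groups overlapped fully, all below the array medians. The difference was -0.01 ± 0.14 (SE, 95% interval -0.34 to 0.33; limma adjusted p = 0.990), and its sign turned without TKI258 replicate 1 (0.14) or without water replicate 1 or 3 (0.0070 each).

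Alpl encodes tissue-nonspecific alkaline phosphatase, which releases phosphate from pyrophosphate and so removes an inhibitor of mineral growth. Its signals were 6.47, 6.11 and 6.50 in TKI258 tumors, against 6.80, 6.55 and 6.63 in water tumors. The groups did not overlap, but TKI258 replicate 3 and water replicate 2 were close to each other. Alpl averaged 6.36 ± 0.21 in TKI258 tumors and 6.66 ± 0.13 in water tumors (SD, n = 3 each), a difference of -0.30 ± 0.13 (SE, 95% interval -0.62 to 0.02; limma adjusted p = 0.639). Without TKI258 replicate 2 the difference was -0.17.

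Phex encodes an endopeptidase of osteoblasts and osteocytes whose loss raises FGF23 and causes phosphate wasting in mice and humans. It had signals of 5.49, 5.59 and 5.53 in TKI258 tumors, against 6.08, 5.58 and 6.02 in water tumors. Water replicates 1 and 3 were high, while water replicate 2 lay among the TKI258 tumors, and all 6 values were below the array medians. The means were 5.54 ± 0.05 in TKI258 tumors and 5.90 ± 0.28 in water tumors (SD, n = 3 each), a difference of -0.36 ± 0.15 (SE, 95% interval -0.71 to -0.01; limma adjusted p = 0.615). Fgf23 itself, the phosphate hormone gene, differed by 0.26 ± 0.17 (SE; limma adjusted p = 0.702). It had 6.17, 6.10 and 6.73 in TKI258 tumors and 6.14, 5.99 and 6.09 in water tumors. Only TKI258 replicate 3 stood apart, and the other 5 values were below the array medians.

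Mgp encodes matrix Gla protein, a vitamin K-dependent inhibitor of soft tissue calcification made by chondrocytes, vascular smooth muscle and fibroblasts. Its signals were 10.71, 10.36 and 9.68 in TKI258 tumors and 10.39, 10.83 and 9.79 in water tumors. Each group held a high, a middle and a low tumor, and the groups overlapped over nearly their whole range. Mgp averaged 10.25 ± 0.53 in TKI258 tumors and 10.34 ± 0.52 in water tumors (SD, n = 3 each), a difference of -0.09 ± 0.34 (SE; limma adjusted p = 0.952). The 95% interval, -0.90 to 0.72, leaves room for sizeable differences in either direction, and the sign turned without water replicate 2 (0.16) or TKI258 replicate 3 (0.20).

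**Figure D2:**
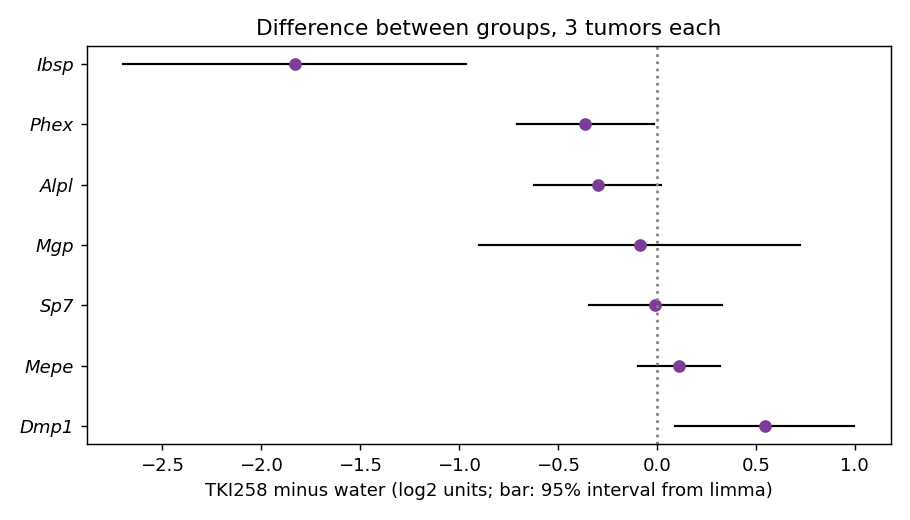
Difference in log2 signal (TKI258 minus water) of the 7 genes, with the 95% interval from limma as a bar and 0 as a dotted line. Ibsp lies farthest from 0 at -1.83, Dmp1 is at 0.55 on the other side, and the bar of Mgp spans from -0.90 to 0.72.

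Of the 7 genes, only Ibsp and Mgp spanned at least 1 log2 unit over the 6 tumors (2.95 and 1.15). For these, the 3 nearest genes were sought by the root mean square difference between array profiles, each centered on its own mean over the 6 tumors. The genes nearest to Ibsp were Mest (0.48 log2 units), Calr4 (0.49) and Mmp1a (0.50). Mest, an imprinted gene of mesodermal tissue, had 7.58, 7.33 and 6.70 in TKI258 tumors, against 8.61, 9.07 and 8.59 in water tumors. Mmp1a, an interstitial collagenase gene, had 4.14, 4.48 and 3.93 in TKI258 tumors and 5.89, 4.76 and 5.75 in water tumors. All 3 were lower in every TKI258 tumor than in any water tumor. This comes with their choice by nearness to Ibsp and is no separate result. Within the TKI258 group Mest and Calr4 had the same order of tumors as Ibsp and Mmp1a did not, and within the water group Mmp1a had that order while Mest was highest in replicate 2 and Calr4 in replicate 3. Distances were far smaller for Mgp, which also spanned less than Ibsp (1.15 against 2.95 log2 units). They were not scaled to the spread of a gene, so the 2 sets of distances are not directly comparable. The probe set annotated to the microRNA gene Mir181b-2 lay at 0.05, Slpi, a secreted protease inhibitor gene, at 0.07, and F13a1, the gene of coagulation factor XIII subunit A, at 0.10. F13a1 had 10.88, 10.67 and 9.83 in TKI258 tumors and 10.73, 11.25 and 10.02 in water tumors, with the same order of tumors within each group as Mgp.

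**Figure D3:**
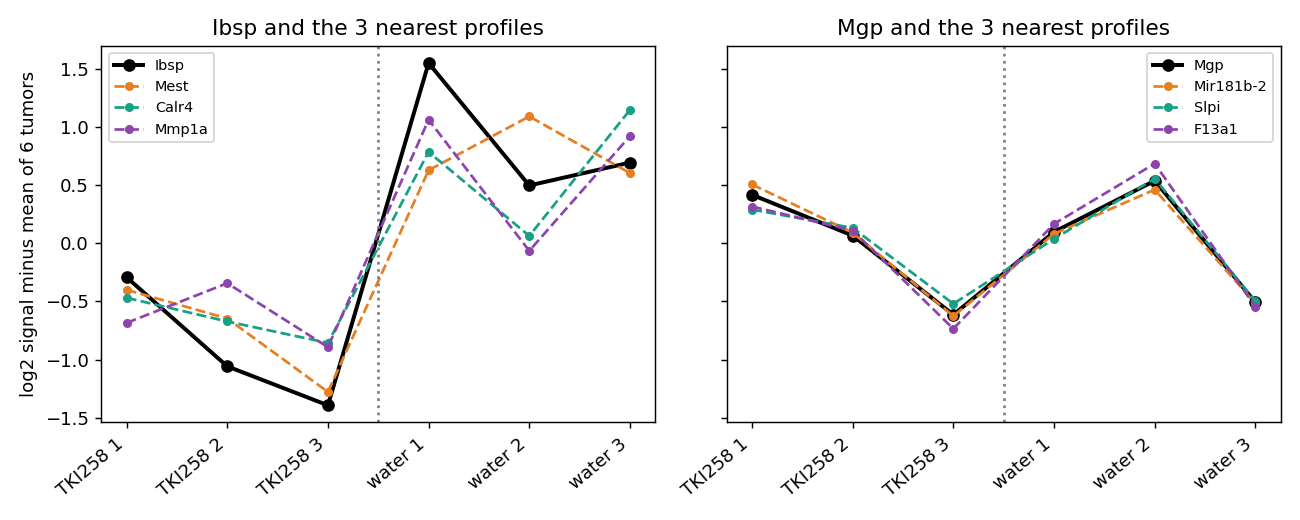
Log2 signal minus the mean over 6 tumors for Ibsp (left) and Mgp (right) with the 3 genes of nearest profile; each position is 1 tumor, and lines only join the values of a gene. Ibsp separates the groups, and so do its nearest genes, which were chosen for nearness to it (distances of 0.48 to 0.50). The Mgp profiles nearly coincide, at distances of 0.05 to 0.10.

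Other genes of bone and mineral were read from lists that were also drawn up with earlier results known, and no member of any list passed limma's test in either direction. Among 22 measured osteoblast and mineral genes, 17 were higher and 5 lower in TKI258 tumors, with a median difference of 0.11, opposite in sign to Ibsp. Of these 22 genes, 6 lay below the array medians in all 6 tumors and 11 above them in all 6. Beside this and the later list counts, 11287 of all 19937 genes were higher and 8650 lower. The bone matrix collagen gene Col1a1 differed by 0.35 ± 0.24 and Sparc, which encodes osteonectin, by -0.07 ± 0.08 (SE). The exception in size was Mmp13, a collagenase gene of hypertrophic cartilage and osteoblasts. It had 8.25, 7.43 and 8.13 in TKI258 tumors, against 8.77, 9.97 and 9.68 in water tumors. Again no TKI258 tumor reached a water tumor (difference -1.54 ± 0.35, SE; limma adjusted p = 0.533), but water replicate 1, the highest for Ibsp, was the lowest water tumor for Mmp13.

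Receptors that bind bone sialoprotein and osteopontin were lower in 8 of 10 cases (median difference -0.10). Itga9, an integrin subunit that binds cleaved osteopontin, had the smallest p. It averaged 7.24 ± 0.12 in TKI258 tumors and 7.84 ± 0.22 in water tumors (SD, n = 3 each), without overlap (difference -0.60 ± 0.13, SE; limma adjusted p = 0.517). Itgb6 was higher, by 0.32 ± 0.09 (SE; limma adjusted p = 0.569), and below the medians on every array. The RGD-binding subunits Itgav and Itgb3 differed by -0.15 ± 0.14 and -0.35 ± 0.14, and the hyaluronan and osteopontin receptor gene Cd44 by -0.15 ± 0.11 (SE). None of these 3 separated the groups completely. Of 10 proteases that can act on osteopontin or SIBLING proteins, 7 were lower (median -0.08). Mmp3 (stromelysin 1) differed most, with 9.56, 9.57 and 9.34 in TKI258 tumors, against 10.48, 10.78 and 10.60 in water tumors (limma adjusted p = 0.242). Plau, the urokinase gene, differed by -0.42 ± 0.15 (SE; limma adjusted p = 0.594).

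Partners of Mgp were split, with 5 of 9 higher and 4 lower (median 0.03). The carboxylase gene Ggcx, whose enzyme activates Gla proteins, differed by 0.03 ± 0.12, and Vkorc1l1, a vitamin K reductase gene, by 0.11 ± 0.10 (SE). Bmp2, a bone-inducing ligand that MGP can bind, was the exception. It had 5.01, 4.92 and 5.32 in TKI258 tumors, against 5.74, 6.24 and 5.63 in water tumors. All 3 TKI258 tumors were below all 3 water tumors at a low signal (difference -0.78 ± 0.19, SE; limma adjusted p = 0.546). Medians of the osteoclast and chondrocyte genes were slightly above 0. Of 11 osteoclast genes 6 were higher and 5 lower (median 0.06), with 0.22 ± 0.11 for Acp5, 0.17 ± 0.26 for Ctsk and 0.33 ± 0.15 for Tnfsf11, the RANK ligand gene (SE). Of 13 chondrocyte genes 11 were higher and 2 lower (median 0.11), and 8 were below the array medians in all 6 tumors, Acan and Comp among them. The cartilage factor Sox9, which epithelia also express, was 8.29 ± 0.19 in TKI258 tumors and 8.71 ± 0.03 in water tumors (SD, n = 3 each; limma adjusted p = 0.569), while Col2a1 differed by 0.05 ± 0.09 and Comp by 0.25 ± 0.13 (SE).

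**Figure D4:**
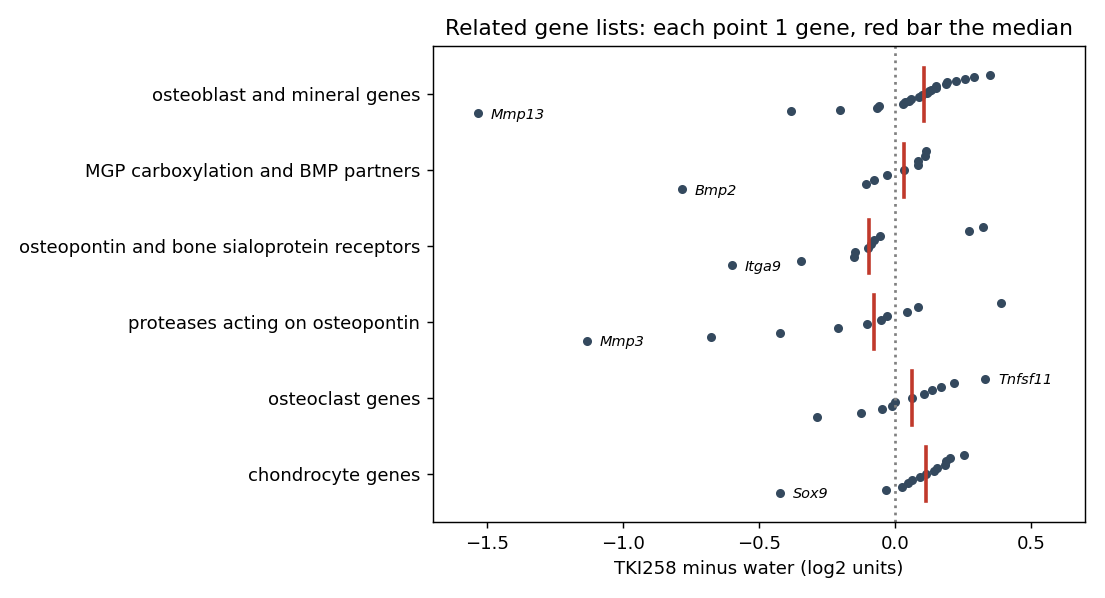
Difference in log2 signal (TKI258 minus water) of the genes in 6 related lists; each point is 1 gene, the red bar is the list median, and the gene with the largest absolute difference is named. Medians lie between -0.10 and 0.11, and single genes, Mmp13 at -1.54, Mmp3 at -1.13 and Bmp2 at -0.78, stand away from them.

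Several cell type markers moved between the same tumors. Neutrophil markers were lower in 10 of 10 cases, with list means of 6.34 to 6.89 in TKI258 tumors and 7.05 to 7.55 in water tumors. Single list means were 6.89, 6.62 and 6.34 in TKI258 replicates 1, 2 and 3, the order of Ibsp there, and 7.05, 7.44 and 7.55 in water replicates 1, 2 and 3, where Ibsp was highest in replicate 1. Macrophage markers were lower in 13 of 14 cases (9.23 to 9.35 in TKI258 tumors, 9.34 to 9.84 in water tumors). Adipocyte markers were higher in 8 of 8 cases. Their list means were 7.26, 7.97 and 8.77 in TKI258 replicates 1, 2 and 3, the reverse of the order of Ibsp there, against 7.18, 6.15 and 6.69 in water replicates 1, 2 and 3, the same order as Ibsp. Fibroblast markers were higher in 7 of 9 cases (8.62 to 9.11 in TKI258 tumors, 8.46 to 8.60 in water tumors), and epithelial markers in 4 of 6 (8.54 to 9.02 and 8.36 to 8.90). Pericyte and smooth muscle markers were lower in 7 of 10 cases (7.10 to 7.32 in TKI258 tumors, 7.36 to 7.42 in water tumors) and endothelial markers in 6 of 9 (7.26 to 7.75 and 7.40 to 7.80). None of these markers passed limma's test, and their part in the differences of the bone matrix genes was not tested. Without both TKI258 replicate 3 and water replicate 1, Ibsp differed by -1.27 ± 0.27 and Dmp1 by 0.77 ± 0.12 (SE, 2 tumors per group; limma adjusted p = 0.440 and 0.352). Water replicate 1, low in keratinocyte markers at 5.38, had the highest Ibsp signal of all tumors, and a relation of these markers to Ibsp was not tested.

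**Figure D5:**
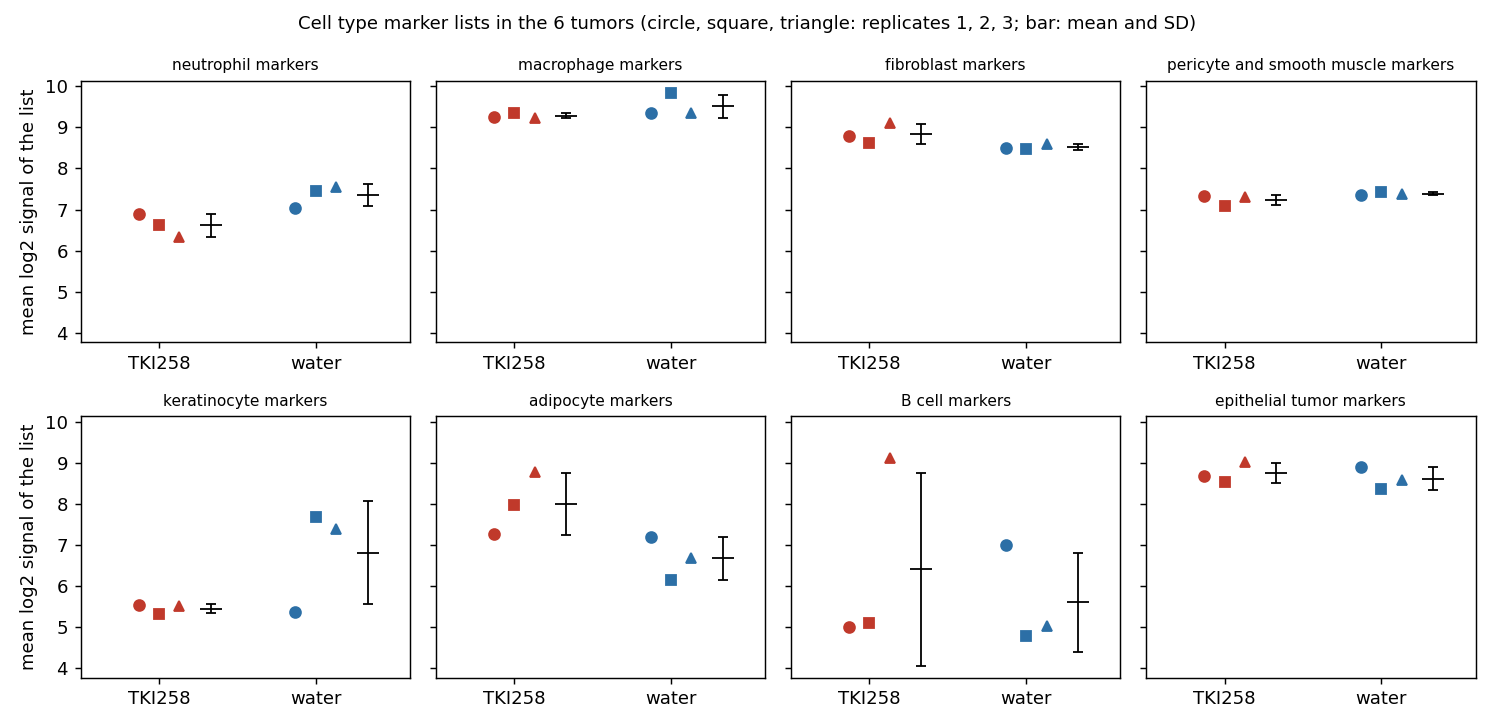
Mean log2 signal of 8 cell type marker lists in single tumors (TKI258 left, water right; bars, mean and SD of 3 tumors). Neutrophil means are lower in TKI258 tumors (6.34 to 6.89, against 7.05 to 7.55 in water), adipocyte means are higher, and B cell and keratinocyte means are set by 1 or 2 tumors of a group.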

How the data were processed

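Total RNA of whole tumors was amplified, biotin-labeled and hybridized to Affymetrix arrays, 1 per tumor, per the labels' protocols. The table holds log2 signals, 1 per probe set and array, which the authors made with RMA, per the submitters' processing notes. These also name affy and limma, without versions. The genome build is not given in the sources used here. All 34760 probe sets and 6 columns were used. Platform annotation gave 1 gene to 21640 probe sets, several to 1321 and none to 11799; 21553 symbols matched RefSeq (GRCm38.p6) by Entrez number, and 0 changed. Each gene was read from its probe set with the highest mean.

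Groups were compared with limma 3.58.1 in R 4.3.3 (lmFit and eBayes, group as the only term, two-sided, no filter), adjusted over all probe sets; differences are TKI258 minus water, with moderated SE. The fit was run on 5 simulated sets with 200 changed probe sets, and its recovery of these is not reported here. The simulated noise was independent between probe sets, so shifts shared by many genes of a tumor were not covered. The number of arrays limits the precision. The titles call the tumors biological replicates. The genes and lists were chosen with earlier results of these data known. Beyond the 7 measured genes, at most 2 genes per list (smallest p) and preset names were given, and 3 genes of nearest profile where values spanned at least 1 log2 unit. Krt8 was named after its values were seen. Alternatives covered scaling, filters, a replicate block, the eBayes prior, array weights, left-out arrays and the threshold.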

Additional observations from a re-analysis of the deposited data

How the results depend on the processing

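None of the 7 bone matrix genes passed under any alternative, including an adjusted p of 0.1. Limma's adjusted p ranged from 0.248 to 0.798 for Ibsp and from 0.301 to 0.886 for Dmp1. Ibsp (-2.14 to -1.27), Dmp1 (0.39 to 0.77), Mepe (0.07 to 0.15), Alpl (-0.37 to -0.17) and Phex (-0.52 to -0.26) kept their direction in all alternatives that retained them. Mgp turned higher with array weights (0.24), without water replicate 2 (0.16), without TKI258 replicate 3 (0.20) and with the B cell-rich pair (water replicate 1, TKI258 replicate 3) left out (0.23). Sp7 turned without water replicate 1 or 3 (0.0070 each) and without TKI258 replicate 1 (0.14). With single arrays left out, Mgp ranged from -0.36 to 0.20 and Sp7 from -0.090 to 0.14. The cause was not tested. Of all probe sets, 2 passed with the variance filter, 1 without that pair, and 0 to 3 when single arrays were left out, the 3 without water replicate 1. The replicate block left 0 probe sets and 0 bone matrix genes passing, and Ibsp differed by -1.83 ± 0.13 (SE) in it, with a limma adjusted p of 0.557. Deviations of same-numbered tumors from their group means correlated at -0.23, 0.19 and 0.01. The labels do not say whether a number pairs tumors, and these correlations over all probe sets cannot settle it. The low-signal filter removed Mepe, Sp7 and Phex and the variance filter Mepe. Other probe sets of a gene could not be tried, since each gene had 1.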
